A study of Mus musculus with 2 samples.

Results

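The 8 genes described here encode secreted antagonists of Wnt signalling: Sfrp1, Sfrp2, Sfrp4, Frzb, Wif1, Dkk2, Dkk3 and Sost. They were taken by gene symbol from the 32285 genes of a single-cell RNA count table of mouse periodontal ligament, the connective tissue that joins the tooth root to the alveolar bone. The genes were selected on values measured in these cells, the UMIs of each gene in marker-defined cell classes of both libraries, so their levels are given as a description, without tests. In the orthodontic tooth movement (OTM) library the left first molar of the upper jaw had been pulled mesially with a force of 10 g for 6 days. The control library came from the right side, which carried no force. Both came from male C57BL/6J mice aged 8 weeks (whether the same mice gave both sides is not given in the sources used here), and each library pooled the tissue of 5 mice, taken from roots and sockets and digested with collagenase and trypsin. With 1 library for each condition, the spread between animals could not be measured, and what follows compares 2 pools of cells.

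Wnt proteins bind a Frizzled receptor and the co-receptors LRP5 or LRP6, which stabilises beta-catenin and favours bone formation. Secreted antagonists act outside the cell. The SFRP family (with Frzb, also called Sfrp3) and Wif1 bind Wnt ligands, whereas Dkk2 and sclerostin, the product of Sost, act on the LRP co-receptors. In bone, sclerostin is a product of osteocytes, and SFRP4 loss in humans thins cortical bone.

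The OTM library held 1539 barcodes and 36010801 unique molecular identifiers (UMIs, counts of captured transcripts). The control library held 369 barcodes and 5723299 UMIs, and no barcode was shared. After filtering, 1412 OTM and 348 control cells were left, with medians of 19583 and 14877 UMIs. Cells were clustered without the 8 genes. The 8 clusters that scored highest for a stromal marker list are called stromal cells here: 689 OTM cells (48.8%; median 21863 UMIs) and 159 control cells (45.7%; median 19002 UMIs). They carried the ligament genes Postn (periostin; 626 of 689 OTM and 125 of 159 control cells with a UMI), Scx (219 and 41 cells) and Tnmd (198 and 44 cells). Summed endothelial markers in these cells were 165 CPM in OTM and 113 CPM in control (12 and 11 of 12 genes detected), and summed neutrophil markers 98.2 and 42.1 CPM (11 of 12 genes in each). CPM is the usual scale of a gene's UMIs against all UMIs of the cells summed.

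The stromal clusters were unequal between the libraries, which bears on every pooled value. Cluster 0, led by Pcp4, Mfap4 and Omd and left unnamed, was 13.8% of OTM stromal cells (95 cells) and 54.1% of control stromal cells (86 cells). Fibroblast-like cells were cluster 7 (206 OTM and 26 control cells) and cluster 13, led by the collagenase gene Mmp13 (161 OTM and 3 control cells). Cluster 8 was osteoblast lineage-like (56 and 22 cells) and cluster 15 mural-like (13 and 5 cells). The other stromal clusters stayed unnamed: cluster 6 with fibroblast and mural genes in equal number (68 and 4 cells), cluster 9 led by the bone matrix genes Ibsp and Spp1 (63 and 12 cells), and cluster 18 led by histone and mitosis genes (27 and 1 cells). Clusters outside the stroma included endothelial-like cluster 10 (203 and 14 cells) and Schwann-like cluster 4 (15 and 4 cells).

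Over all stromal cells, 7 of the 8 genes reached 20 UMIs in whichever library had more. A gene was counted as apart when its CPM differed at least 2-fold and the exact 95% interval of its ratio excluded 1. These intervals cover counting error only. Sfrp4 and Dkk2 were higher in OTM by this rule (2 of 7; 5.03% of the 14168 genes compared were called higher), and Frzb and Wif1 were lower (2 of 7; 5.55% of all genes were called lower, and 10.6% either way). The median log2 ratio of the 7 genes was -0.17, against 0.01 over all genes compared. Over all cells of each library, stromal or not, Sfrp4 and Dkk2 were higher (2 of 7, with 4.82% of all genes called higher) and Sfrp2, Frzb and Wif1 lower (3 of 7, with 9.36% called lower and 14.2% either way). Endothelial-like cells, which held most Dkk2 UMIs, were 14.4% of OTM and 4.02% of control cells. Their Dkk2 level was 61.2 CPM in OTM and 74.0 CPM in control. The part of this unequal share in the all-cell Dkk2 value was not tested. Sfrp4 was also higher in OTM within clusters 0, 7 and 9, whereas the Frzb and Wif1 differences shrank or turned in several clusters.

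The promoters of Sfrp2, Wif1 and Dkk2 are shown because Sfrp2 and Wif1 were often found in the same stromal cells, while Dkk2 had most of its UMIs in endothelial-like cells. They are RefSeq sequences (GRCm38.p6) up to the last base before the first annotated transcript, 5′ to 3′ on the gene strand. Capitals mark the TATA box word, TATAAA, on either strand. They also mark the GC box word, which is written GGGCGG or, read from the opposite strand, as its reverse complement. The Sfrp2 window is chr3:83766071-83766320, plus strand, the Wif1 window chr10:121033754-121033959, plus strand, and the Dkk2 window chr3:132085042-132085291, plus strand.
Sfrp2: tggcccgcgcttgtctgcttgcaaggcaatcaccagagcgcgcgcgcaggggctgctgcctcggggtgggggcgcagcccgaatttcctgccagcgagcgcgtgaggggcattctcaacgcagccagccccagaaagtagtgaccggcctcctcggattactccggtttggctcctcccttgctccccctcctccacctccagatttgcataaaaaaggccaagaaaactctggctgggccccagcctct
Wif1: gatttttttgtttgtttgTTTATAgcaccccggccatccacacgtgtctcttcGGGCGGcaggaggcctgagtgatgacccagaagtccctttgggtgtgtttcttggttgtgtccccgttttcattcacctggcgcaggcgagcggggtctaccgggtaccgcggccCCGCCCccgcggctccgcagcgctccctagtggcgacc
Dkk2: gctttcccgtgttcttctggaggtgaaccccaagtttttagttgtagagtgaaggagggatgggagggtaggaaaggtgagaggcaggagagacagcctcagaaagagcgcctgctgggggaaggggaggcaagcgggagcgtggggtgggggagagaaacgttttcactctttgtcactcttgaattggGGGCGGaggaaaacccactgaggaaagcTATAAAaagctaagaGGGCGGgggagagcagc
The Dkk2 window held TATAAA 32 bases before the start and 2 GC boxes, the Wif1 window 1 TATAAA (as TTTATA) and 2 GC boxes, and the Sfrp2 window neither word. The search for TCF/LEF words used CTTTGAA and also CTTTGTT and also CTTTGTA and also CTTTGAT on both strands, and none was found in the 3 windows. Among 32851 RefSeq windows of the 250 bases before a start, 12.4% held TATAAA, 32.7% GGGCGG and 14.8% a TCF/LEF word. The Wif1 window has only 206 bases. Its TTTATA lies at -232 from the start used for word positions, so the window stops short of that start. The shares for 250 bases therefore do not apply to it directly. A match is a run of letters and not a measured binding site. The table held 5 of the 8 genes. Sfrp1, Sfrp4 and Dkk3 were not among them.

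Sfrp4 binds Wnt ligands through a Frizzled-like domain (chr13:19623104-19632994, plus strand, GRCm38, 6 exons in GENCODE M21). Stromal cells had 10535 Sfrp4 UMIs in OTM (588 CPM, 577 to 599) and 79 in control (22.9 CPM, 18.2 to 28.6). The OTM level was 25.6-fold the control level, a log2 ratio of 4.68 (4.36 to 5.02). This ratio was among the values known when the gene was picked. Outside the stroma Sfrp4 had 43 UMIs in OTM (2.44 CPM) and 0 in control.

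Among the OTM stromal clusters Sfrp4 ran from 1530 CPM in cluster 18 (1458 to 1604) through 1130.3 in cluster 9 (1080 to 1182), 859 in cluster 13, 546 in cluster 6 and 315 in cluster 7 to 157 in cluster 0. Osteoblast lineage-like cells had 18.6 CPM and mural-like cells 0 UMIs. The intervals of neighbours in this order down to cluster 8 did not overlap, with cells within a cluster varying far more: in cluster 13 the lower quartile, median and upper quartile per cell were 32.5, 250 and 1119 CPM. In cluster 18, 1 cell gave 366 of the 1698 UMIs.

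Where control cells were numerous enough, the same cluster was compared across libraries. In cluster 0 Sfrp4 had 157 CPM in OTM (308 UMIs) and 20.9 CPM in control (38 UMIs), a log2 ratio of 2.91 (2.42 to 3.44), the only gene of 6 called there (2.66% of all genes were called higher, 2.97% lower and 5.62% either way). Other settings drew this cluster differently, and the ratio was 1.23 with the stricter cell filter, 1.35 at resolution 1.5 and -0.25 with cells thinned. In cluster 7 Sfrp4 had 315 CPM in OTM (1376 UMIs) and 19.6 CPM in control (8 UMIs), a log2 ratio of 4.01 (3.03 to 5.22). OTM was the higher library in both clusters. Over all fibroblast-like cells (clusters 7 and 13) Sfrp4 was at 599.5 CPM in OTM (5485 UMIs) and 16.5 CPM in control (8 UMIs), the only gene of 7 called, where 4.02% of all genes were called higher, 3.65% lower and 7.67% either way. Summed neutrophil markers in cluster 7 were 227 CPM in OTM and 56.3 CPM in control (10 and 6 of 12 genes detected), and their part in these ratios was not tested.

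Cluster 9 had 1130.3 CPM of Sfrp4 in OTM and 148 CPM in the 12 control cells (21 UMIs), a log2 ratio of 2.93 (2.32 to 3.63). Osteoblast lineage-like cells had 18.6 CPM in OTM (33 UMIs) and 13.3 CPM in control (10 UMIs), with an interval of -0.57 to 1.67 around a log2 ratio of 0.49. A higher level in OTM was measured in fibroblast-like, Pcp4-rich and Ibsp-rich clusters, and the counting interval in osteoblast lineage-like cells spanned 1. That osteoblast lineage-like value moved with the cells drawn in, to 4.01 at resolution 0.6, 2.65 with the stricter cell filter, 2.10 with cells thinned and -0.62 with no cell filter.

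More OTM cells held the transcript as well. A Sfrp4 UMI was found in 57.3% of OTM stromal cells and 20.1% of control stromal cells. After each cell was thinned to 1500 UMIs (12 OTM and 3 control cells were shallower and left out), the shares were 27.9% (24.6% to 31.5%) and 3.85% (1.42% to 8.18%). Endothelial-like cells, in which little Sfrp4 would be looked for, gave 0 of 200 OTM cells (up to 1.5%) and 0 of 14 control cells (up to 21.4%) after the same thinning, and 2.96% and 0% before it, at median depths of 21617 and 17962 UMIs. In cluster 0 the thinned shares were 9.47% in OTM and 5.81% in control, and in cluster 7 they were 19.3% of 197 OTM cells and 0 of 24 control cells (up to 12.5%). Per cell the distribution was skewed: the 69 OTM stromal cells richest in Sfrp4, of 689, held 69.7% of its UMIs.

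Sfrp2, another ligand-binding SFRP (chr3:83766321-83774316, plus strand, 3 exons), overlaps the antisense gene Gm26771, and how the counting used strand was not given in the sources used here. Stromal cells had 781 CPM in OTM (769 to 794; 14004 UMIs) and 1426 CPM in control (1386 to 1466; 4913 UMIs). The log2 ratio of -0.87 (-0.91 to -0.82) stayed short of the 2-fold rule. Stromal cells held 99.2% of the OTM and 99.9% of the control UMIs of this gene.

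Within clusters 0, 7 and 9 the OTM level of Sfrp2 was the lower of the pair. Cluster 0 had 1336 CPM in OTM and 1976 CPM in control, a log2 ratio of -0.56 (-0.64 to -0.49). Cluster 7 had 764 CPM in OTM and 1817 CPM in control, a log2 ratio of -1.25 (-1.36 to -1.13). Over all fibroblast-like cells (clusters 7 and 13) the ratio was -0.89, with 836 CPM in OTM and 1549 CPM in control, and it ranged to -0.01 with the 8 genes used in clustering, -0.05 at resolution 0.6 and -0.03 with clustering seed 2. Cluster 9 had 457 CPM in OTM and 2493 CPM in the 12 control cells, a log2 ratio of -2.45 (-2.63 to -2.26). In osteoblast lineage-like cells, with 31.6 CPM in OTM and 54.5 CPM in control, 40 of the 41 control UMIs came from 1 cell. With shared cluster weights, clusters 0, 7, 8 and 9 had the same weight in both libraries, each by its cells in both together. The other stromal clusters were left out of this setting. The stromal Sfrp2 log2 ratio was then -1.09, and without cluster 0 alone it was -0.19.

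A Sfrp2 UMI was found in 67.8% of OTM and 68.6% of control stromal cells, and after thinning in 31.3% and 39.7%. In cluster 7 the thinned shares were 32.5% of 197 OTM cells and 37.5% of 24 control cells. Single cells weighed heavily: the richest OTM cell held 564 and the richest control cell 667 UMIs. Before thinning, 3.87% of OTM and 3.70% of control non-stromal cells had a Sfrp2 UMI.

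Sfrp1, a close relative of Sfrp2 (chr8:23411502-23449632, plus strand, 3 exons), differed little. Stromal cells had 167 CPM in OTM (2993 UMIs) and 188 CPM in control (648 UMIs), a log2 ratio of -0.17 (-0.29 to -0.05). Cluster 0 had 284 CPM in OTM and 268 CPM in control, a log2 ratio of 0.09 (-0.09 to 0.27), and cluster 7 had 196 and 223 CPM, a log2 ratio of -0.19 (-0.50 to 0.14). In OTM the highest levels were in clusters 0, 13 (213 CPM), 7 and 18 (190 CPM), and low levels in clusters 9 (32.9 CPM) and 8 (25.4 CPM). The pooled ratio was 0.62 without cluster 0, the 1 setting of 18 alternatives in which its sign turned. With shared cluster weights it stayed negative, and the part of the cluster make-up was not tested further. Cluster 9 had 55 UMIs in OTM and 1 in the 12 control cells, a 4.68-fold ratio with an interval of 0.805 to 188. After thinning, a Sfrp1 UMI was found in 20.7% of OTM and 23.7% of control stromal cells (75.5% and 73.6% unthinned), against 4.70% and 2.65% of non-stromal cells unthinned, at median depths of 16505 and 7978 UMIs.

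Frzb, an SFRP first known from developing cartilage (chr2:80411970-80447625, minus strand, 6 exons), was scarce, with 205 stromal UMIs in OTM (11.4 CPM) and 117 in control (34.0 CPM). The pooled level was lower in OTM, with a log2 ratio of -1.57 (-1.90 to -1.23). Within cluster 0, where the gene was highest among stromal clusters, there were 45.9 CPM in OTM and 51.7 CPM in control, a log2 ratio of -0.17 (-0.61 to 0.26). Osteoblast lineage-like cells had 24.2 and 21.3 CPM and a log2 ratio of 0.19 (-0.67 to 1.12).

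The pooled and the within-cluster values of Frzb therefore differed. With shared cluster weights the stromal log2 ratio was -0.07, and the call was lost. A Frzb UMI was found in 17.1% of OTM and 43.4% of control stromal cells, and after thinning in 2.51% and 6.41%. In OTM the gene was low in clusters 13 (2.09 CPM) and 9 (1.20 CPM). Outside the stroma, Schwann-like cells had 66.2 CPM in OTM (12 UMIs in 15 cells) and 55.3 CPM in control (3 UMIs in 4 cells), with intervals of 34.2 to 116 and 11.4 to 162 CPM that span the cluster 0 levels.

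Wif1 binds Wnts through its own WIF domain (chr10:121033960-121100650, plus strand, 10 exons). It had 23592 stromal UMIs in OTM (1316 CPM, 1300 to 1333) and 9891 in control (2871 CPM, 2814 to 2928). The pooled OTM level was lower, with a log2 ratio of -1.12 (-1.16 to -1.09). Stromal cells held 98.2% of its OTM and 99.8% of its control UMIs.

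Cluster 0 was the Wif1-rich cluster: every one of its 95 OTM and 86 control cells had a UMI. Its level was 5447 CPM in OTM and 4463 CPM in control, a log2 ratio of 0.29 (0.25 to 0.33). Per cell the quartiles were 2551, 4898 and 7162 CPM in OTM and 2053, 3408 and 6406 CPM in control, so the cells of both libraries overlapped widely. In osteoblast lineage-like cells Wif1 had 787 CPM in OTM (1397 UMIs, 453 from 1 cell) and 436 CPM in control (328 UMIs, 111 from 1 cell), a log2 ratio of 0.85 (0.68 to 1.03). Summed endothelial markers in those cells were 37.2 CPM in OTM and 235 CPM in control (6 and 11 of 12 genes detected), and their part in the ratio was not tested.

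Clusters 7 and 9 went the opposite way. Cluster 7 had 1420.5 CPM in OTM and 2020.0 CPM in control, a log2 ratio of -0.51 (-0.61 to -0.40). Cluster 9 had 302 CPM in OTM and 845 CPM in the 12 control cells, a log2 ratio of -1.49 (-1.77 to -1.19). Cluster 13, almost absent from control, had 439 CPM in OTM. With shared cluster weights the stromal log2 ratio was 0.03, against -1.12 with the cluster shares as found.

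The thinned share of stromal cells with a Wif1 UMI was 52.3% in OTM and 69.2% in control (unthinned 85.1% and 89.9%). Within cluster 0 it was 100% in OTM and 89.5% in control, and within cluster 7 it was 61.9% and 58.3%. In endothelial-like cells 2.50% of 200 OTM cells and 0 of 14 control cells had a UMI after thinning. The 123 endothelial OTM UMIs included 66 in 1 cell, against 0 UMIs in control, and Wif1 was the 1 gene of 5 called in endothelial-like cells (3.18% of all genes were called higher, 6.9% lower and 10.1% either way). Summed fibroblast markers in these cells were 1087 CPM in OTM and 187 CPM in control (17 and 10 of 17 genes detected), and their part in the Wif1 call was not tested.

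Dkk2, a ligand of LRP5 and LRP6 (chr3:132085292-132180304, plus strand, 4 exons), had most of its UMIs in endothelial-like cells. Endothelial-like cells held 353 of its 578 OTM UMIs (61.1%) and 21 of its 37 control UMIs (56.8%). Their level was 61.2 CPM in OTM (55.01 to 68.0) and 74.0 CPM in control (45.8 to 113), a log2 ratio of -0.27 (-0.91 to 0.44), and 17 of the control UMIs came from 1 cell. In OTM, 27.6% of the 203 endothelial-like cells had a UMI, and the 21 richest cells held 83.6% of the UMIs.

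In stromal cells Dkk2 had 216 UMIs in OTM (12.1 CPM) and 11 in control (3.19 CPM), a log2 ratio of 1.92 (1.05 to 2.94). Of the OTM UMIs, 99 lay in cluster 6 (53 in 1 cell) and 67 in cluster 13 (44 in 1 cell), clusters with 4 and 3 control cells. In cluster 7 the level was the other way round, 5.72 CPM in OTM (25 UMIs) and 17.1 CPM in control (7 UMIs, 6 from 1 cell). The stromal ratio was -0.64 when cells were thinned and reclustered. It was -0.96 with shared cluster weights, a setting that leaves out clusters 6 and 13. After thinning to 1500 UMIs a Dkk2 UMI was found in 1.03% of OTM and 1.92% of control stromal cells (8.27% and 3.77% unthinned), against 5.50% and 7.14% of endothelial-like cells.

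Among OTM endothelial-like cells, the fifth with the highest Dkk2 CPM (40 cells; median 29298 UMIs) was set against the other 160 cells (median 21095 UMIs), a split made after the values were seen. The genes highest in the Dkk2-rich cells relative to the others, with no more than 30% of their UMIs in 1 cell, included Edn1, the vasoconstrictor endothelin-1, at 310.2 CPM in Dkk2-rich and 90.4 CPM in other cells. Prnd had 139 and 34.0 CPM, Uchl1 52.9 and 9.60 CPM, and St8sia6 69.7 and 17.6 CPM. Dkk2 itself set the split, at 222 and 4.92 CPM.

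Dkk3, a divergent DKK family member (chr7:112116017-112159057, minus strand, 8 exons), was close between the libraries. Stromal cells had 137 CPM in OTM (2455 UMIs) and 113 CPM in control (389 UMIs), a log2 ratio of 0.28 (0.12 to 0.44). Cluster 0 had 121 CPM in OTM and 106 CPM in control, and cluster 7 had 226 and 218 CPM, with both ratio intervals spanning 1. After thinning, 18.3% of OTM and 17.9% of control stromal cells had a Dkk3 UMI (80.3% and 71.7% unthinned). Cluster 9 departed from this, with 83.9 CPM in OTM (140 UMIs) and 282 CPM in control (40 UMIs from 12 cells), a log2 ratio of -1.75 (-2.26 to -1.20).

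Cluster 9 thus held 4 of the 5 genes with enough UMIs outside the 2-fold rule, Sfrp4 higher and Sfrp2, Wif1 and Dkk3 lower in OTM. There 5.53% of all genes were called higher, 8.39% lower and 13.9% either way, and its 12 control cells limit the comparison. Marker sums of the cluster also differed, with osteoblast lineage markers at 15372 CPM in OTM and 28620.1 CPM in control (15 and 13 of 15 genes detected), osteocyte markers at 633 and 211 CPM (5 and 4 of 6 genes) and dendritic markers at 989 and 3225 CPM (6 and 4 of 11 genes). Their part in the ratios was not tested. In osteoblast lineage-like cells 0 of 6 genes were called, where 3.71% of all genes were called higher, 1.39% lower and 5.1% either way. In cluster 7, 3 of 7 genes were called (Sfrp4 higher, Sfrp2 and Dkk2 lower), where 4.41% of all genes were called higher, 2.82% lower and 7.23% either way.

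Sost (chr11:101962458-101967015, minus strand, 2 exons) gave no usable level. It had 0 UMIs among the 35518568 of the OTM cells, which allows up to 0.0845 CPM, and 1 UMI in control, in a macrophage-like cell. Within smaller sets of cells the limits were wider. In stromal cells, 0 UMIs allow up to 0.167 CPM in OTM and 0.871 CPM in control. In osteoblast lineage-like cells they allow up to 1.69 CPM in OTM and 3.99 CPM in control. Other osteocyte genes in the stromal cells were Dmp1, with 3880 UMIs in OTM and 452 in control, Phex with 155 and 32, Fgf23 with 11 and 1, and Mepe with 12 and 0. Sost transcripts were not detectable at this depth in either library's stroma.

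**Figure D1:**
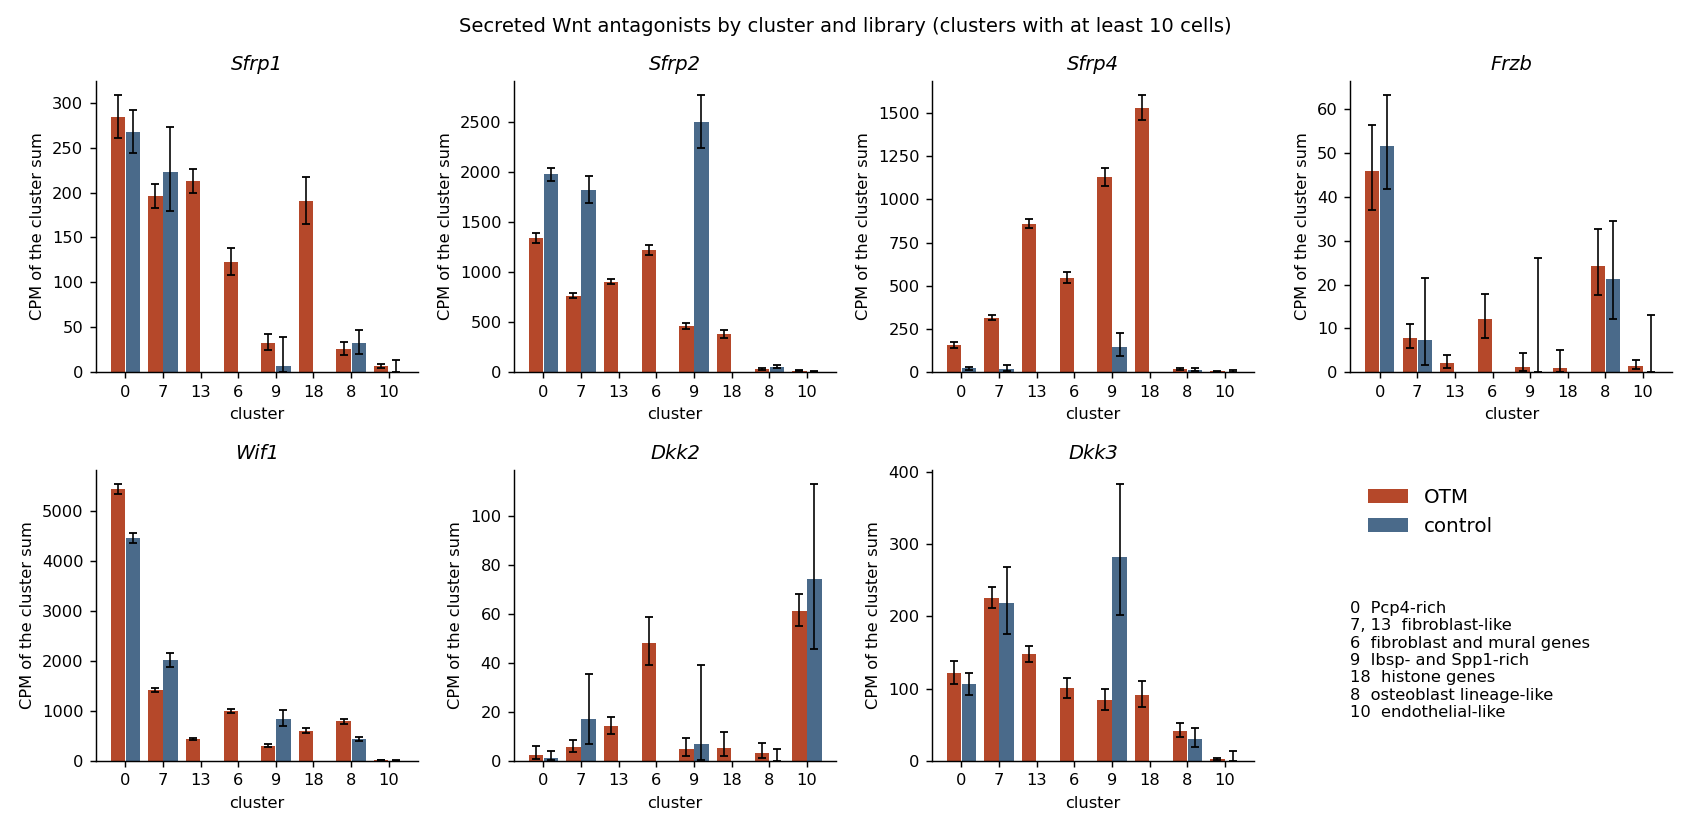
Level of each antagonist in CPM of the cluster sum (bars, from 0) for OTM (left bar) and control (right bar) in the 7 largest stromal clusters and endothelial-like cluster 10; bars are drawn for clusters with at least 10 cells in that library, and whiskers are exact 95% Poisson intervals. Sfrp4 is high in OTM clusters 18, 9 and 13, Wif1 peaks in cluster 0 in both libraries, and Dkk2 is high in clusters 6 and 10.

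**Figure D2:**
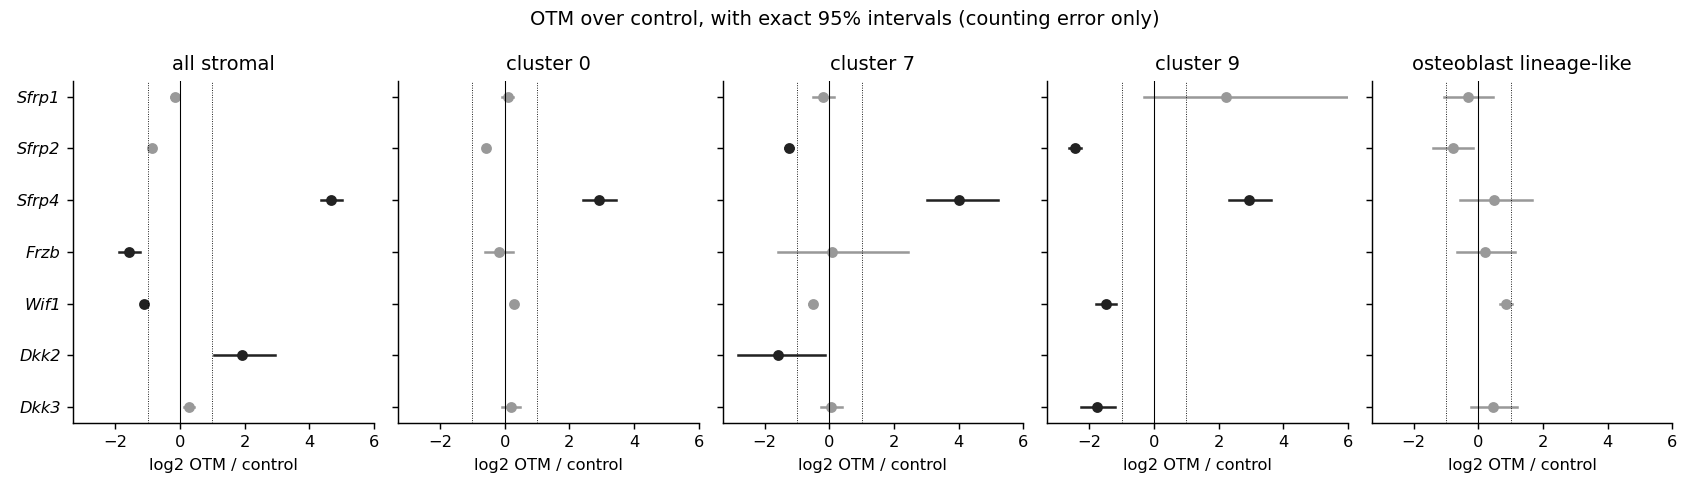
Log2 ratio of OTM over control with exact 95% intervals, for genes with at least 20 UMIs in the higher library and UMIs in both; black points passed the 2-fold rule (dotted lines), and the upper end of the Sfrp1 interval in cluster 9 is beyond the axis. Sfrp4 lies at 2.91 in cluster 0, 4.01 in cluster 7 and 2.93 in cluster 9, while Wif1 lies right of 0 in cluster 0 and in osteoblast lineage-like cells and left of 0 in clusters 7 and 9.

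Across 23 profiles (each a library by cluster with at least 20 cells; the clusters of a library share its pool and sequencing), the levels of the antagonists were set against those of 9208 other genes, as Pearson r of log2(CPM + 10). The profiles most like Sfrp4 were those of Htra3, a serine protease (0.91), Ccn5 (0.91), Rgs4 (0.91), Mmp13, an interstitial collagenase (0.91), and Tnfsf11 (0.91), which encodes RANKL, the cytokine that drives osteoclast formation. Wif1 was most like Islr (0.97), Barx1, a homeobox gene (0.96), the long non-coding RNA Meg3 (0.96), Omd, which encodes osteomodulin (0.96), and Mfap2 (0.96). Sfrp2 was most like Cpxm1 (0.97), Ogn (0.97), C1ra (0.96), Fbln1 (0.95) and Prrx2 (0.95).

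Sfrp1 was most like Rarres2 (0.95), Thbs2 (0.94), Mdk (0.94), Col16a1 (0.94) and Gulp1 (0.93), and Dkk3 most like C1s1 (0.97), Pou3f3 (0.96), Igsf10 (0.96), Six2 (0.96) and Clec11a (0.96). The highest for Frzb were Angpt4 (0.88), Ikzf4 (0.87), Peg3 (0.87), Sult5a1 (0.87) and Glis1 (0.86), and for Dkk2 the mechanosensitive channel gene Piezo2 (0.91), Abca4 (0.88), Filip1 (0.88), Dock6 (0.88) and Rnf165 (0.87). For genes held mostly by stromal cells, much of r can reflect stromal against other clusters, a part that was not separated out. Dkk2 has most of its UMIs in endothelial-like cells, and its r can likewise reflect those cells against other clusters. That part was not separated out either. The 14 control endothelial-like cells were below the limit of 20, so only OTM gave an endothelial-like profile. In OTM cluster 6, 53 of the 99 Dkk2 UMIs came from 1 cell. Over the 10 stromal profiles alone, Sfrp1 and Sfrp2 had an r of 0.84 and Frzb and Wif1 of 0.73, while Sfrp4 had -0.70 with Frzb and -0.41 with Wif1.

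Within single thinned OTM stromal cells, Wif1 was found in 71.2% of the 212 cells with a Sfrp2 UMI and in 43.7% of the 465 cells without. Control gave 85.5% of 62 and 58.5% of 94 cells. Sfrp4 did not separate Wif1 in the same way, with Wif1 in 52.4% of the 189 OTM cells with a Sfrp4 UMI and in 52.3% of the 488 without. Within cluster 13 alone the share was 48.1% of 77 cells with and 25.3% of 83 cells without Sfrp4, and within cluster 9 it was 8 of 31 and 16 of 32 cells. Every cluster 0 cell of OTM had a Wif1 UMI, with or without Sfrp2. In all, 21.1% of OTM and 17.3% of control stromal cells had no UMI of any of the 8 genes after thinning, and 4.28% and 2.56% had UMIs of 4 of them.

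Within cluster 7 of the OTM library, the fifth of cells richest in Sfrp4 (40 cells; 1261 CPM) was set against the other 157 cells (49.4 CPM). The leading genes were Kcnj15, Mmp13, Anxa8, Kcnip4 and Adra2a. Mmp13 had 8763 CPM in Sfrp4-rich and 1723 CPM in other cells. In cluster 13, the 32 Sfrp4-rich cells had 10573 CPM of Spp1, which encodes osteopontin, and the other 128 cells 1705 CPM. Inhba, which encodes an activin subunit, had 803 and 198 CPM, and Sfrp2 had 2120 and 574 CPM. Of the UMIs in these Sfrp4-rich cells, 1 cell held 29.5% for Spp1, 13.9% for Inhba and 25.9% for Sfrp2.

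The 40 cells of cluster 7 richest in Wif1 (4415 CPM, against 657 CPM in the other 157 cells) had other leading genes. Igfbp6, an IGF-binding protein gene, had 292 CPM in Wif1-rich and 30.8 CPM in other cells. Pcp4, a leading gene of cluster 0, had 47.4 and 0.86 CPM (42 and 3 UMIs, with 26.2% of the 42 in 1 cell). Median depths were 18888 and 20363 UMIs, and these splits were made after the values were seen.

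Other genes of the Wnt pathway were compared in the stromal cells by lists chosen with earlier results of these data known, against 5.03% of all genes called higher, 5.55% called lower and an all-gene median of 0.01. Of 14 other antagonists, 7 had enough UMIs, 2 were higher in OTM, 0 lower, and the median log2 ratio was 0.35. The higher genes were Notum, a Wnt deacylase, with 6.19 CPM in OTM and 2.90 CPM in control (111 and 10 UMIs), and Draxin, with 4.58 and 1.16 CPM (82 and 4 UMIs). Notum went the other way in fibroblast-like cells, where it was called lower in OTM. The most abundant was Igfbp4, with 1637 CPM in OTM and 1284 CPM in control. Kremen1, a Dkk receptor, had 75.3 and 56.0 CPM, Lrp4, a sclerostin-binding receptor, 50.6 and 85.0 CPM, and Tpbg 44.5 and 50.2 CPM.

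Of 21 ligand and ligand-processing genes, 13 had enough UMIs, 2 were higher in OTM, 1 was lower, and the median was 0.47. Wnt7b had 16.4 CPM in OTM and 6.09 CPM in control, and Porcn, the acyltransferase that lipidates Wnts, 24.9 and 11.03 CPM. Wnt10a had 21.04 CPM in OTM and 43.0 CPM in control, the lower gene, but was called higher in OTM within cluster 7. Wnt5a, a ligand known for beta-catenin-independent signalling, had 192 and 97.8 CPM, a log2 ratio of 0.97 that missed the rule. Within classes Wnt5a was called higher in OTM in fibroblast-like cells and, like Wnt5b, lower in cluster 9. Over all stromal cells Wls, the Wnt carrier, had 222 and 144 CPM, Wnt5b 67.7 and 63.3 CPM, and Wnt11 29.0 and 35.1 CPM.

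Of 9 R-spondin genes and their receptors, 8 had enough UMIs, and 0 were called either way (median -0.39). Rspo1 had 21.4 CPM in OTM and 13.9 CPM in control, Lgr4 19.0 and 30.2 CPM, Lgr6 14.1 and 13.6 CPM, and Znrf3 59.8 and 74.6 CPM. Of 16 Wnt receptors, 15 had enough UMIs, 0 were higher and 2 lower (median -0.41): Fzd7, with 18.5 CPM in OTM and 40.6 CPM in control, and Fzd9, with 1.90 and 4.06 CPM. Fzd1 had 111 and 147 CPM, Ryk 146 and 77.5 CPM, Ror1 91.7 and 102 CPM, and Ptk7 76.2 and 84.7 CPM. Within cluster 9, 0 of 10 receptors were called higher and 6 lower (Fzd1, Fzd2, Fzd7, Ror1, Ror2 and Ptk7). There 5.53% of all genes were called higher and 8.39% lower. In clusters 0 and 7, 0 of 12 receptors were called in each. Over all stromal cells, all 16 cytoplasmic and nuclear genes were measured and 0 called (median -0.18). Among them Ctnnb1, beta-catenin, had 194 CPM in OTM and 246 CPM in control. Csnk1a1 had 284 and 310.3 CPM, Gsk3b 123 and 117 CPM, and Tcf7l2 122 and 165 CPM.

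Of 14 Wnt target genes, 0 were higher and 4 lower in the pooled OTM stroma, with a median of -0.81. Lef1 had 18.7 CPM in OTM and 44.1 CPM in control, Tcf7 28.7 and 63.9 CPM, Ccnd1, cyclin D1, 65.3 and 152 CPM, and Bambi 126 and 256 CPM. Twist1 had 336 and 408 CPM, Cd44 249 and 138 CPM, and Ccn4 158 and 90.6 CPM. Within cluster 0, 0 of the 12 targets with enough UMIs were called and the median was -0.09 (2.66% of all genes were called higher and 2.97% lower). Within cluster 7, 1 of 12 was higher (Ccn4), 0 were lower and the median was 0.22 (4.41% and 2.82% of all genes). Over all fibroblast-like cells, 1 of 13 was higher (Ccnd1, lower in the pool), 0 were lower and the median was 0.05 (4.02% and 3.65%). In osteoblast lineage-like cells, 1 of 12 was higher (Cd44), 0 were lower and the median was 0.02 (3.71% and 1.39%). Cluster 9 went the pooled way, with 1 of 10 higher (Ccnd1), 3 lower (Nkd2, Tcf7 and Tnfrsf19) and a median of -0.51 (5.53% and 8.39% of all genes). Over all the Wnt lists together, not the targets alone, 7 genes were called lower in the stromal pool and 9 without cluster 0. With shared cluster weights the number was 1, by a rule without intervals. The part that the unequal cluster make-up has in the pooled target values was not tested beyond these values.

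**Figure D3:**
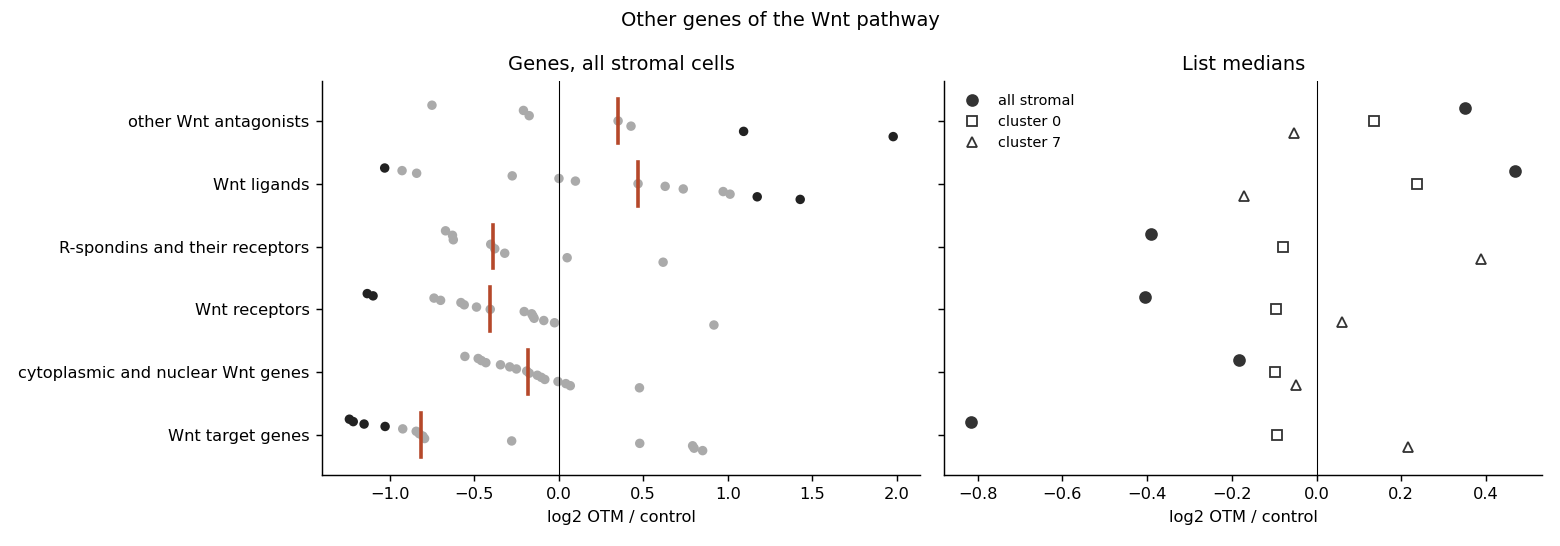
Left, log2 ratio of OTM over control in all stromal cells for each Wnt pathway gene with at least 20 UMIs in a library (points; black passed the 2-fold rule) with list medians (bars); right, list medians over all stromal cells, cluster 0 and cluster 7. The target list has a median of -0.81 over all stromal cells, -0.09 in cluster 0 and 0.22 in cluster 7.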

How the data were processed

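The authors deposited unnormalised UMI counts for each gene and barcode. The matrices name Cell Ranger 7.0.1, per the file headers. Builds mm10 and GRCm38 and the package Seurat appear, without roles, in the submitters' processing notes. Of 32285 gene IDs, 32158 were found in GENCODE M21 (GRCm38), which gave the loci. Barcodes with at least 200 genes and at most 20% mitochondrial UMIs were kept, which removed 127 OTM and 21 control barcodes. Scrublet called 8 OTM and 2 control cells as doublets, none of them stromal (0 and 0), and these were kept. The low number of calls limits what it says of doublets.

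Both libraries were clustered together with scanpy 1.11.5 (10000 counts per cell, log scale, 2000 variable genes without the 8 members, 30 components, 15 neighbours, Leiden resolution 1.0, seed 0). Clusters were scored on 22 marker lists. A name needed at least 3 detected markers, a score of at least 0.5, and at least 2 own markers among the 10 leading genes, more than of any other list. Names rest on transcripts alone.

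UMIs were summed over the cells of a library, with exact Poisson intervals for sums, Clopper-Pearson intervals for shares and exact conditional binomial intervals for ratios (95%, counting error only). No p-value was computed, since each condition is 1 library. The limit given for a count of 0 is 3 UMIs, or 3 cells for a share of cells, in place of an interval. The ratio code was tested on simulated data. The genes named are the 8 members, the 4 most abundant and all called genes of each Wnt list, and the 5 most similar profiles for each member with at least 100 UMIs, leaving out mitochondrial, ribosomal, Gm and Rik genes. Genes from splits of cells were chosen after their values were seen. The members and lists were chosen with earlier results of these data known. Alternatives changed the cell filter, doublets, clustering, depth, weights and scaling (TMM of edgeR 4.0.16, median ratio).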

Additional observations from a re-analysis of the deposited data

Results flagged for a closer look

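Wif1 went in opposite directions in different stromal clusters. The log2 ratio of OTM over control was 0.29 in Pcp4-rich cluster 0 and 0.85 in osteoblast lineage-like cells, but -0.51 in fibroblast-like cluster 7 and -1.49 in cluster 9, with counting intervals that exclude 0 in each. The difference between clusters was not tested, because each condition is 1 library. In cluster 9 the control side rests on 12 cells, and in osteoblast lineage-like cells 453 of 1397 OTM UMIs and 111 of 328 control UMIs came from 1 cell each. With the richest cell of each library left out, the osteoblast lineage-like ratio was 0.99.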

How the results depend on the processing

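The stromal Sfrp4 ratio kept its direction and its call under all 18 alternatives, between 3.20 and 4.95 on the log2 scale. Settings that left out cluster 0, used shared cluster weights or used other clustering seeds were chosen after seeing the data. Shared cluster weights turned Wif1 in stromal cells to 0.0268 and Dkk2 to -0.96. That setting kept only clusters 0, 7, 8 and 9 (420 OTM and 146 control cells). Thinning before clustering turned Dkk2 to -0.64 and Sfrp4 in the Pcp4-rich cluster to -0.25, where the cells were redrawn (76 OTM and 85 control cells). With the mean over cells or shared weights a call needed the 2-fold difference and 20 UMIs, without an interval. Of the 7 antagonists, 2 were called higher in stromal cells in the reported setting. The number was 1 with libraries clustered alone, thinned cells, the mean over cells or shared weights. Called lower were 2 in the reported setting (Frzb and Wif1) and 0 with thinned cells (Frzb -1.25, Wif1 -0.78) or without cluster 0 (Frzb -0.97, Wif1 -0.44). The number called lower was 1 with the mean over cells (Frzb, -1.49) and 1 with shared weights. In the latter the gene was Sfrp2 (-1.09) and neither Frzb (-0.07) nor Wif1. Wnt pathway genes called higher numbered 4, but 2 with thinned cells or the mean over cells, 1 with shared weights and 6 with TMM scaling. Those called lower numbered 7, but 3 with thinned cells or the mean over cells and 4 with TMM scaling or without the richest cell. The number was 1 with shared weights, 8 with no minimum count and 9 without cluster 0. In the Pcp4-rich cluster the 1 call became 2 with the stricter cell filter, resolution 1.5 or libraries clustered alone, and 0 with thinned cells. In fibroblast-like cells the 1 call became 3 with the stricter filter or resolution 1.5, and 2 with doublets removed, thinned cells or the mean over cells. In osteoblast lineage-like cells 0 calls became 1 with no filter, the stricter filter, doublets removed, the antagonists used in clustering, resolution 0.6, thinned cells, the richest cell left out or seed 1, and 2 with the mean over cells. The causes were not tested. Libraries clustered alone gave no value for the fibroblast-like and osteoblast lineage-like sets. No paired analysis was possible because each condition is 1 library. The 159 control stromal cells limit every comparison, and Frzb, Dkk2 and Sost have few UMIs.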
